A study of Sus scrofa with 6 samples.

Results

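The genes described here are newly assembled genes of porcine preadipocytes, which the deposited gene table lists under an ID that starts with Pig_newGene and without a name. They were chosen by that ID and by values that differ from those of every transcript in the deposited lncRNA table when all 6 samples are compared to 6 decimals. Of the 22164 genes in the table, 4076 were newly assembled and 18088 were annotated. The rule left 2861 members, which is 70.2% of the new genes and 12.9% of all genes. The other 1215 new genes carried the values of a lncRNA transcript and are given beside the members for comparison.

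Preadipocytes are precursors in fat tissue from which adipocytes form. The cytokine TGF-β1 acts on cells through a receptor pair and the Smad proteins. The cells came from subcutaneous fat of 5-day-old pigs. The source labels run from Junmu No. 1 to Junmu No. 6 white pigs, with another number for every sample, and whether a number marks an animal or belongs to a breed name is not stated. All samples were cultured preadipocytes collected after 48 h. The 3 negative control (NC) samples received citric acid at 10 mM, and the other 3 received human recombinant TGF-β1 at 10 ng/mL. The paper calls the 3 samples of a group biological replicates. Ribosomal RNA was depleted rather than poly(A) RNA selected, so RNA without a poly(A) tail could also enter the libraries.

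A gene annotation lists the transcripts known for a genome build. StringTie builds transcripts from aligned reads, and a locus that it builds outside the annotation is reported as a new gene. Such a locus can be a protein-coding gene that the annotation lacks, a non-coding RNA, or a detached piece of a known gene. The values here do not separate these cases. The authors screened transcripts for lncRNAs by length, exon number and predicted coding potential, with an FPKM above 0.1 taken as expressed. The files give neither coordinates nor sequences for the new genes, so their position, coding potential and sequence are not described here.

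Levels are FPKM, a fragment count scaled to gene length and to the fragments mapped in each library. Stromal markers were found for 13 of 15 symbols, summed to 8184 to 9562 FPKM per sample and included PDGFRA and PDGFRB, receptors of mesenchymal progenitors. Adipocyte markers summed to 0.510 to 2.22 FPKM over the 6 symbols found of 8. Markers of macrophages and leukocytes, 7 found of 9, summed to 38.7 to 149.5 FPKM in NC and to 18.7 to 97.7 FPKM with TGF-β1. Endothelial markers, 4 found of 5, summed to 5.68 to 13.7 and to 4.30 to 9.20 FPKM. Epithelial markers were all found and summed to 0.102 to 0.486 FPKM in NC and to 4.60 to 6.07 FPKM with TGF-β1. The 2 muscle symbols found of 6, chiefly DES, summed to 277 to 440 and to 447 to 599 FPKM, and 23 of 26 TGF-β response genes summed to 8112 to 12204 and to 10542 to 12166 FPKM. The epithelial and muscle sums did not overlap between the groups, and the part of any of these lists in the results below was not tested. Of 66 genes for cytosolic ribosomal proteins (RPL and RPS symbols), which every cell uses, 1 was listed at 0 in at least 1 sample. An FPKM of 0 is therefore reported as listed at 0, and no fold change of a single gene is printed against a group listed at 0. Summaries and the plot of fold changes include such genes.

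TGF-β1 replicate 3 stood apart from the other samples over the members. Across the 2861 members its Pearson r with the other 5 samples was 0.800 to 0.851 on the log2 scale, and its median r of 0.834 was the lowest of the 6 samples, where the other medians were 0.851 to 0.878. Across the annotated genes the same sample had an r of 0.966 to 0.972, inside the 0.961 to 0.975 of all pairs. Among members with an FPKM above 0.1 in all 6 samples, the r of this sample was 0.912 to 0.945. Genes are not independent replicates, so these correlations only describe the samples. Its epithelial marker sum of 4.60 FPKM was the lowest and its macrophage and leukocyte sum of 97.7 FPKM the highest of the TGF-β1 samples, and their part was not tested. Relative depth, from the commonest ratio of low values, was 0.842 for this sample and 0.740 to 1.00 over the 6 samples. That estimate rests on 22 to 27 of 3591 to 3759 genes and is rough.

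Against the lncRNA table, the wording of the rule leaves a limited number of lncRNA loci inside the members. The table holds 4908 transcripts, and 592 of its loci have 2 or more. For 169 members, which is 5.91%, the 6 FPKM values equalled the sum over the transcripts of one such locus within 1e-05 FPKM. Each of the 169 matched a different locus, with 2 to 8 transcripts. By their values these members are in the lncRNA table as whole loci, although they equal no single transcript. A check independent of the values came from the IDs. Over the 1384 new genes paired with a lncRNA locus by value, the new gene numbers ran in the exact alphabetical order of the locus numbers, with a Spearman rho of 1.00. In numerical order rho was -0.43, so neighbouring new gene numbers need not be neighbours among the loci. The remaining 2692 members matched no locus sum. Members that combine a lncRNA with other transcripts were not searched for.

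The members were expressed at lower levels than the annotated genes. The median over members of the mean FPKM was 0.365, against 3.09 for the annotated genes and 0.209 for the new genes equal to a lncRNA. From the 25th to the 75th percentile the members ranged from 0.105 to 1.44 FPKM, and the annotated genes from 0.306 to 11.4 FPKM. A mean of at least 1 FPKM was reached by 861 members (30.1%) and by 65.1% of the annotated genes. At least 10 FPKM was reached by 164 members (5.73%) and by 27.4% of the annotated genes, and at least 100 FPKM by 11 members. Only 3 members had no sample with an FPKM above 0.1, while 2227 annotated genes had none. A new gene is built from reads of these samples, so detection in some sample is part of how the members arose. Every gene of the table, annotated or new, had an FPKM above 0 in at least 1 sample.

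**Figure D1:**
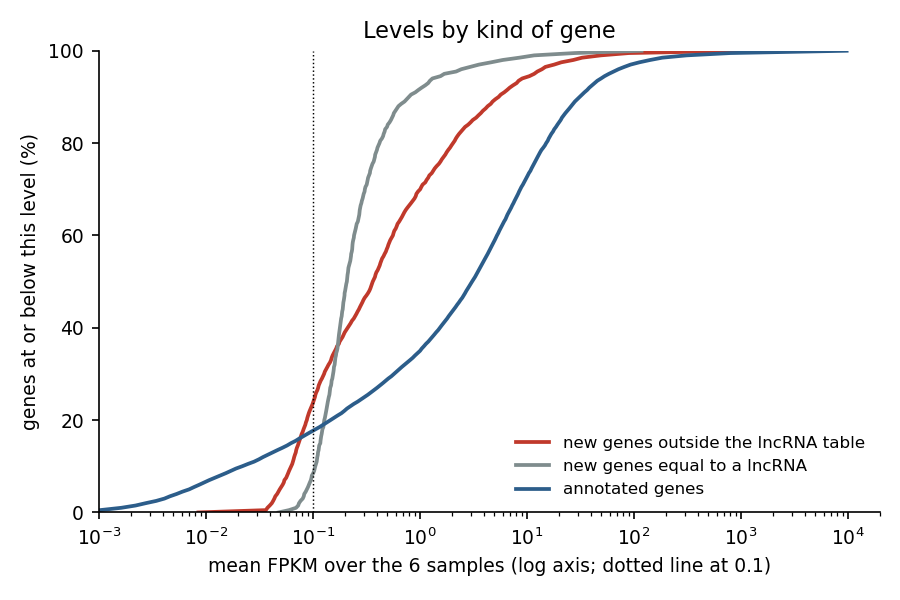
Cumulative share of genes (vertical axis, percent) at or below a mean FPKM over the 6 samples (horizontal log axis), for the 2861 members, the 1215 new genes equal to a lncRNA and the 18088 annotated genes. The curve of the members reaches 50% at 0.365 FPKM, between the new genes equal to a lncRNA at 0.209 and the annotated genes at 3.09.

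Per sample, the members summed to 9567, 10180 and 9583 FPKM in the NC samples and to 9119, 9514 and 8636 FPKM in the TGF-β1 samples. All 3 TGF-β1 sums lay below the 3 NC sums, and the FPKM of the whole table was also lower in all TGF-β1 samples. As a share of the table, the members held 2.13%, 2.30% and 2.29% in NC and 2.25%, 2.38% and 2.20% with TGF-β1, and these shares overlapped. A small number of members made up much of the sum. The 10 highest members held 27.6% of the mean sum, and the 100 highest held 61.8%.

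The most abundant member was Pig_newGene_68607, which ranked 65 by mean FPKM among all genes of the table. It had 1287, 1318 and 1053 FPKM in NC and 1176, 1051 and 464 FPKM with TGF-β1. The groups overlapped, and the single low value was in TGF-β1 replicate 3 (log2 fold change -0.55 with SE 0.38, limma adjusted p = 0.653). Without that sample its log2 fold change was -0.13. The next member by mean, Pig_newGene_45511, varied most of the 6 most abundant members. Its values were 80.6, 502 and 469 FPKM in NC and 198, 685 and 314 FPKM with TGF-β1, and its highest value was 8.49 times its lowest. The low values were in replicate 1 of each group (log2 fold change 0.39 with SE 0.87, limma adjusted p = 0.891). The macrophage and leukocyte sum was also lowest in replicate 1 of each group, at 38.7 and 18.7 FPKM, and its part was not tested. The fold change of this member turned to -0.47 when NC replicate 1 was left out and to -0.10 when TGF-β1 replicate 2 was.

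The other 4 of the 6 most abundant members were steady within groups. Pig_newGene_64952 had 210, 225 and 211 FPKM in NC and 168, 169 and 167 FPKM with TGF-β1. Pig_newGene_64947 had 158, 168 and 152 FPKM in NC and 120, 127 and 126 FPKM with TGF-β1. Both had all TGF-β1 values below all NC values, with log2 fold changes of -0.36 and -0.36 (standard errors 0.08 and 0.09), and neither passed the test (adjusted p = 0.359 and 0.382 from limma). The ratio of the first to the second was 1.33 to 1.40 in every sample, so that these members kept a nearly constant proportion. Pig_newGene_43602 had 164, 151 and 152 FPKM in NC and 189, 189 and 199 FPKM with TGF-β1, with all TGF-β1 values above all NC values (log2 fold change 0.31 with SE 0.09, limma adjusted p = 0.412). Pig_newGene_4268 had 138, 140 and 167 FPKM in NC and 187, 166 and 186 FPKM with TGF-β1, where the groups overlapped by a single pair of values. None of the 6 passed the test.

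Detection differed between the members and the annotated genes in how many samples shared it. A gene was counted as expressed above 0.1 FPKM, the expression threshold used throughout. This level was found in all 6 samples for 1356 members (47.4%) and for 13311 annotated genes (73.6%). It was found in a single sample for 567 members (19.8%) and 672 annotated genes (3.72%). For the new genes equal to a lncRNA these numbers were 436 (35.9%) in all 6 samples and 29 (2.39%) in a single one. Every new gene equal to a lncRNA was above 0 FPKM in 3 or more samples. Among the members, 358 were above 0 in 1 sample only and 327 in 2. The paper reports more lncRNAs than the deposited lncRNA table holds transcripts. It names no limit on the number of samples for a lncRNA. With a limit of 3 samples in that table, the member rule would place new genes seen in fewer samples among the members. Whether such a limit was used, and its part in these counts and shares, was not tested. In a given sample, 1904, 1907 and 1904 members were expressed in NC and 1863, 2031 and 2096 with TGF-β1. The NC counts were nearly equal, and the TGF-β1 counts lay on both sides of them. Annotated genes expressed per sample numbered 14351 to 14646, with 14574 in TGF-β1 replicate 3. New genes equal to a lncRNA numbered 867 to 924, and like the members they were most numerous in that sample. The median FPKM of the expressed members was 0.720 to 0.818 in a sample, and that of the expressed annotated genes was 4.98 to 5.45.

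**Figure D2:**
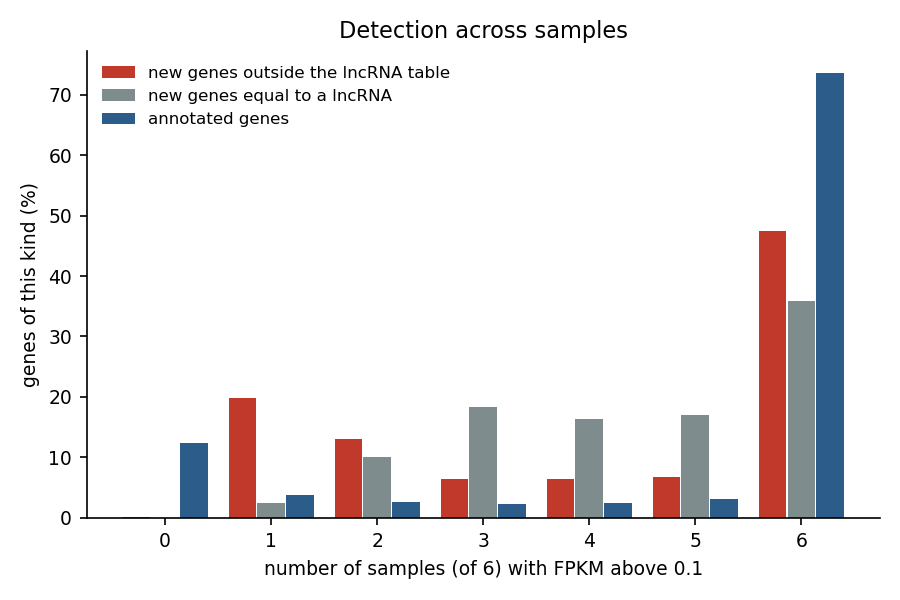
Share of genes (vertical axis, percent) by the number of samples, 0 to 6, in which their FPKM exceeded 0.1 (horizontal axis), for the members and the other kinds of gene. Of the members, 47.4% reached all 6 samples and 19.8% reached a single one, against 73.6% and 3.72% of the annotated genes. The new genes equal to a lncRNA had 35.9% and 2.39%.

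Members expressed in a single sample numbered 99, 108 and 65 for the NC samples and 60, 90 and 145 for the TGF-β1 samples. TGF-β1 replicate 3 held the most. Among annotated genes, the same counts were 106, 101 and 129 in NC and 113, 121 and 102 with TGF-β1, where TGF-β1 replicate 3 was among the lowest. The relative depth estimates were 1.00, 0.881 and 0.778 for the NC samples and 0.740, 0.798 and 0.842 with TGF-β1. The part of depth in these counts was not tested. In 1019 members (35.6%), over 50% of the FPKM sum came from 1 sample, against 12.7% of the annotated genes, and in 288 of the 1019 that sample was TGF-β1 replicate 3. Annotated genes also had their highest count there for this measure, 449 against 325 to 423 in the other samples, and for a value above 0 in 1 sample alone, 207 against 127 to 179. Between a mean of 0.1 and 0.5 FPKM this share was 34.4% of 967 members and 11.5% of 2021 annotated genes. Between 2 and 10 FPKM it was 2.87% of 418 members and 0.379% of 5278 annotated genes.

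**Figure D3:**
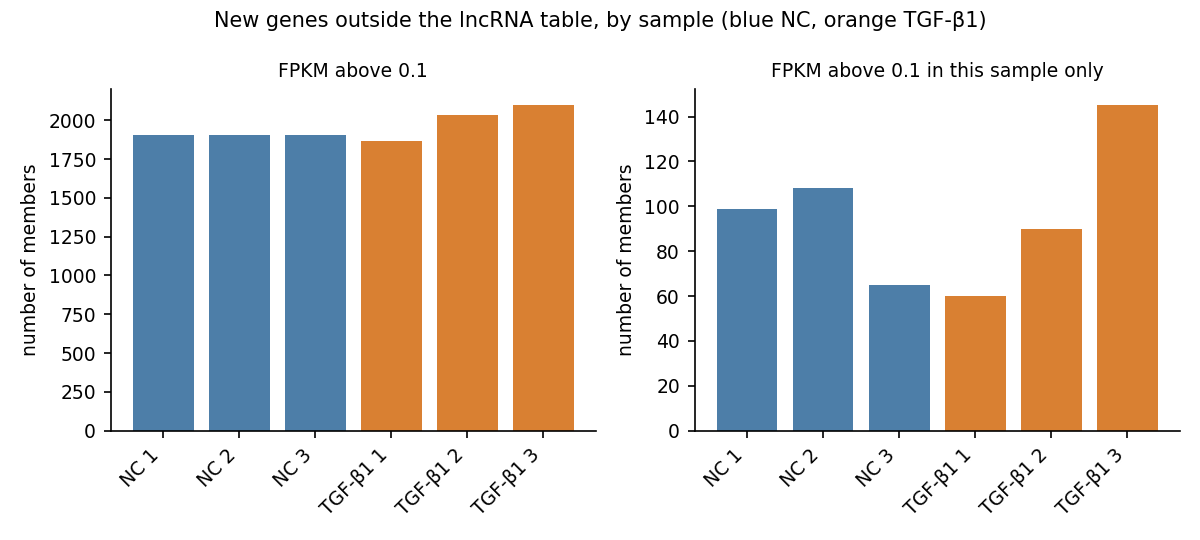
Number of members (vertical axes) with an FPKM above 0.1 in each sample (left) and in that sample only (right), for 3 NC samples (blue) and 3 TGF-β1 samples (orange). The left counts run from 1863 to 2096, and the right counts from 60 to 145, both highest in TGF-β1 replicate 3.

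Some of the members carried by 1 sample were not low. In all, 19 members had a highest value above 5 FPKM that made up more than 50% of their sum, and in 7 of these the sample was TGF-β1 replicate 3. Pig_newGene_57609, named after its values were seen, had the highest of these values. It had 0.00627, 0.0175 and 0.0295 FPKM in NC, was listed at 0 in TGF-β1 replicate 1, and had 0.00326 and 61.5 FPKM in TGF-β1 replicates 2 and 3. The last sample held 99.9% of the sum. This member was above 0.1 FPKM in too few samples to be tested.

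By group, 2066 members (72.2%) reached this level somewhere in both groups, against 82.8% of the annotated genes. A further 340 members (11.9%) reached it among NC samples only and 452 (15.8%) among TGF-β1 samples only, where the annotated genes had 2.52% and 2.38%. The counts follow the number of samples entered. Leaving out TGF-β1 replicate 1, 2 or 3 gave 424, 436 and 452 members for NC alone, each time more than for TGF-β1 alone (307 without replicate 3), and the annotated genes moved the same way, to 643 to 676 and 309 to 328. Leaving out an NC sample gave 232 to 275 members for NC alone and 537 to 599 for TGF-β1 alone. The difference between the groups in these counts was not tested.

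For the comparison of TGF-β1 with NC, log2(FPKM + 0.1) was tested with limma over all genes of the table for which 3 or more of the 6 samples exceeded 0.1 FPKM. These were 17708 genes, of which 1917 were members (67.0% of the members). The other 944 members were not tested, and their median mean FPKM was 0.0780. Fold changes refer to log2(FPKM + 0.1), so that those of genes with a low FPKM are understated. A P value sets the difference between the groups against the spread within the groups of 3 samples each. Benjamini-Hochberg adjustment was made over all 17708 genes at a threshold of 0.1.

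Of the 1917 tested members, 5 passed (0.261%), 2 higher and 3 lower with TGF-β1. Over all tested genes 17 passed, which is 0.096%, with 0.0508% higher and 0.0452% lower. Of the annotated genes 9 of 14728 passed (0.0611%), and of the new genes equal to a lncRNA 3 of 1063 (0.282%). The share of the members was thus near that of the other new genes. In 4 of the 5 members a whole group was listed at 0. Such a member met the filter only through the other group, so it had to differ between the groups. The adjusted p of these 4 and the counts over tested members carry this selection and are given as a description. With no filter the adjusted p of the 4 was 0.00046 to 0.0784 in limma. That fit uses the same values of members already picked, so it is a description too. Zeros throughout a group have no spread, which lowers the spread used in either fit. The number of members that passed was 17, 11 and 13 without TGF-β1 replicate 1, 2 or 3, and 5, 5 and 6 without NC replicate 1, 2 or 3. Of the 5 members, between 2 and 4 passed in each of these fits, where a group is left with 2 samples and its spread is taken from both groups.

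Pig_newGene_24290 rose with TGF-β1 and was measured in every sample. It had 0.270, 0.324 and 0.267 FPKM in NC and 1.69, 1.60 and 2.18 FPKM with TGF-β1, or 0.287 ± 0.0319 and 1.82 ± 0.314 (SD, n = 3 each). The NC values lay within a narrow range well below the lowest TGF-β1 value. The log2 fold change of this member was 2.30 with SE 0.15 (limma adjusted p = 0.0262), and it did not pass without NC replicate 1 or 3 (adjusted p = 0.124 and 0.116). Nor did it pass with the replicate number as a block (limma adjusted p = 0.207). In these bulk samples, more RNA of a gene per cell and more cells that hold it cannot be told apart.

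In Pig_newGene_61003 every NC value was a listed 0, and it had 0.308, 0.356 and 0.214 FPKM with TGF-β1 (adjusted p = 0.0545 from limma). This member met the filter only through TGF-β1, so all 3 of those values had to exceed 0.1 FPKM. It remained at a low level. It did not pass without any one of the NC replicates or without TGF-β1 replicate 1 (limma adjusted p = 0.115 to 0.219). With a pseudocount of 1 its adjusted p was 0.321.

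The largest difference among the members that passed was that of Pig_newGene_39422. It had 12.4, 9.74 and 13.6 FPKM in NC, or 11.9 ± 1.97 (SD, n = 3), and was listed at 0 in all 3 TGF-β1 samples (adjusted p = 0.00029 from limma). Its adjusted p was 0.00153 to 0.00718 when a sample was left out. Pig_newGene_44795 had 0.479, 0.780 and 0.818 FPKM in NC and a listed 0 in all TGF-β1 samples (adjusted p = 0.0262 from limma). It passed in 5 of the 6 fits and not without NC replicate 2 (adjusted p = 0.121) or with a pseudocount of 1 (adjusted p = 0.199). The third member that was lower with TGF-β1 had the lowest level of them, with 0.248, 0.259 and 0.173 FPKM in NC and a listed 0 in every TGF-β1 sample (adjusted p = 0.0529 from limma). It passed in the fit without NC replicate 3 and in none of the other 5 that left out a sample (adjusted p = 0.106 to 0.179), nor with a pseudocount of 1 (adjusted p = 0.340). All 3 of these members met the filter only through the NC samples. Their adjusted p, also in the fits that left out a sample, carry this selection and are given as a description. The files do not pair these IDs with a gene name.

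**Figure D4:**
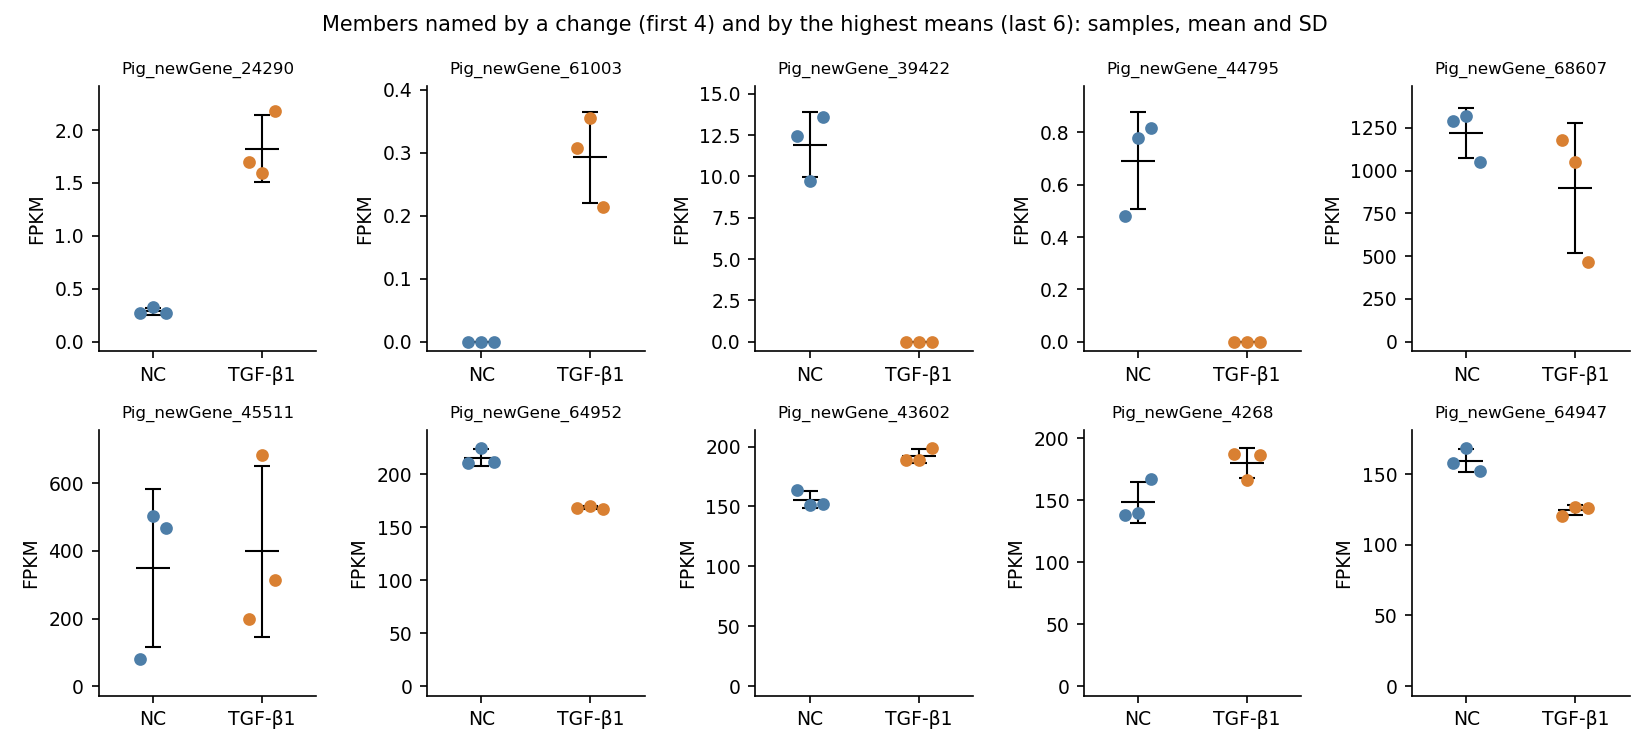
FPKM (vertical axes, which include 0) of 10 members in 3 NC and 3 TGF-β1 samples, with points for samples and bars for the mean and SD. The first 4 were named because they passed the test with separate groups. Of these, Pig_newGene_61003, Pig_newGene_39422 and Pig_newGene_44795 have a group listed at 0 and met the filter only through the other group. The last 6 are the most abundant members, of which Pig_newGene_68607, Pig_newGene_45511 and Pig_newGene_4268 had groups that overlap.

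The epithelial marker sum was 0.102 to 0.486 FPKM in NC and 4.60 to 6.07 FPKM with TGF-β1. It divided the samples in the same way as these members, which have separate groups, as would any sum that does not overlap between the groups. KRT5, a keratin of basal epithelial cells, had a listed 0 for each NC sample and 1.95 to 2.29 FPKM with TGF-β1. CDH1, KRT15, KRT18, CLDN4 and DSP had means below 0.1 FPKM. Whether these markers have a part in the differences of the members was not tested.

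A whole group was listed at 0 in a small share of the members. In 16 members all NC values were listed at 0 and all TGF-β1 values exceeded 0.1 FPKM (0.559%), and in 7 members the reverse held (0.245%). Among new genes equal to a lncRNA these patterns were found in 4 (0.329%) and 3 (0.247%), and among the annotated genes in 2 and 3. The 16 members with values only in TGF-β1 had group means of 0.227 to 1.01 FPKM (median 0.408), and the 7 with values only in NC had 0.227 to 11.9 FPKM (median 1.71). Of the 16, 1 passed the test, and of the 7, 3 passed. Most members are low, so the count was also taken at a like level, where 18 of 967 members, 7 of 914 new genes equal to a lncRNA and 3 of 2021 annotated genes between a mean of 0.1 and 0.5 FPKM had either pattern. Single zeros were common too. Between a mean of 0.1 and 0.5 FPKM, 56.7% of the members, 43.8% of the new genes equal to a lncRNA and 20.0% of the annotated genes were listed at 0 in at least 1 sample, and between 2 and 10 FPKM 4.31%, 4.76% and 1.44% were.

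At an unadjusted p of 0.05, 116 members were higher and 145 were lower, together 13.6% of those tested, where 9.98% of all genes were past this value (2.72% higher and 7.26% lower). The groups did not overlap in 329 members (17.2%), where 18.1% of all tested genes had such groups. Of these 329, 127 were higher (6.62% of the tested members, against 3.83% of all genes) and 202 were lower (10.5%, against 14.3%). The total share was thus near that of all genes. Of the tested new genes equal to a lncRNA, 6.49% were higher and 6.96% lower with separate groups, and 12.5% were past the unadjusted p. The split by direction depended on the scaling. With median-ratio scaling, 174 members were higher and 126 lower, and at an unadjusted p of 0.05 149 were higher and 90 lower. Scaling each sample to the same total gave 162 higher and 74 lower at that p, and quantile normalization gave 151 and 97. Over all tested genes the split at that p turned in the same way, from 482 higher and 1286 lower to 788 and 647 with median-ratio scaling. Without TGF-β1 replicate 3, the groups did not overlap in 512 members (26.7%), where 27.4% of all genes had such groups.

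The median log2 fold change of the tested members was -0.09, and that of the annotated genes was -0.10. All tested genes had a median of -0.10, so the members were centred with the rest of the table. The members spread more widely around this centre. Their 5th and 95th percentiles were -1.03 and 1.68, and those of the annotated genes were -0.69 and 0.46. An absolute log2 fold change above 1 was found in 283 tested members (14.8%), 184 of them positive, in 14.2% of the new genes equal to a lncRNA, whose percentiles were -1.04 and 1.27, and in 3.54% of the annotated genes.

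**Figure D5:**
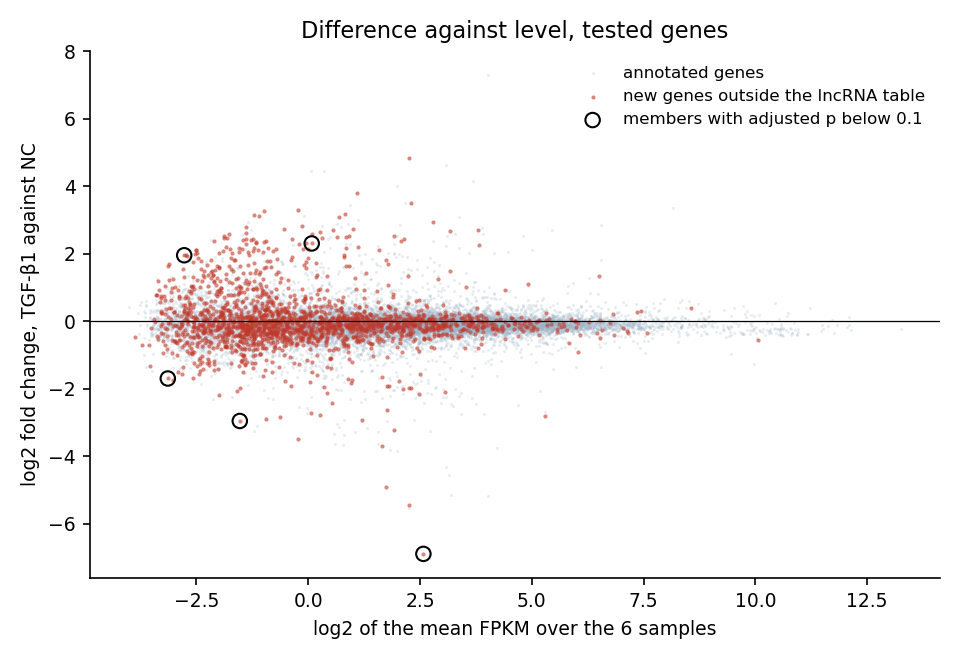
Log2 fold change of TGF-β1 against NC (vertical axis) against the log2 of the mean FPKM (horizontal axis) for the tested members (red) and annotated genes (grey blue), with circles around the 5 members with an adjusted p below 0.1. The members lie mostly at low levels, where the values of all genes spread most, and have a median of -0.09. Where a whole group was listed at 0, the fold change depends on the 0.1 added to the FPKM.

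The members also varied more between samples of a group. The median SD within groups, on the log2 scale, was 0.42 for the tested members and 0.20 for the annotated genes. Part of this difference remained at a like level of expression. The median SD was 0.67 for 693 members and 0.54 for 1809 annotated genes between 0.1 and 0.5 FPKM, 0.41 and 0.35 between 0.5 and 2 FPKM, 0.24 and 0.19 between 2 and 10 FPKM, and 0.14 and 0.12 at 10 FPKM or more. The SD of new genes equal to a lncRNA was 0.61 in the lowest of these ranges and 0.14 in the highest. These medians are descriptions, and the differences between the kinds of gene were not tested.

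Among the 796 members with a mean of at least 1 FPKM and all 6 values above 0.1, the SD over all samples on the log2 scale ranged from 0.04 to 2.78, with a median of 0.26. The steadiest was Pig_newGene_20571, a member that equals a lncRNA locus sum, with 25.1, 24.2 and 24.7 FPKM in NC and 25.7, 24.1 and 25.05 FPKM with TGF-β1. Pig_newGene_48857 was next, with 8.28, 8.62 and 8.21 FPKM in NC and 8.88, 8.44 and 8.21 FPKM with TGF-β1. The groups overlapped in both members. At the other end, Pig_newGene_4866 had 0.124, 0.147 and 0.228 FPKM in NC and 16.9, 2.77 and 8.62 FPKM with TGF-β1. All its TGF-β1 values lay above its NC values and differed widely among themselves, and it did not pass (log2 fold change 4.84 with SE 0.66, limma adjusted p = 0.152). Of the fits that left out a sample, it passed in the one without TGF-β1 replicate 2 (limma adjusted p = 0.0508). Pig_newGene_64745 had 71.5, 49.6 and 49.8 FPKM in NC and 47.4, 15.1 and 0.600 FPKM with TGF-β1 (log2 fold change -2.82 with SE 1.56, limma adjusted p = 0.594). Its TGF-β1 values were all below its NC values and spread over a wide range, with the lowest in TGF-β1 replicate 3. Without that sample its log2 fold change was -1.06.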

How the data were processed

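RNA of 3 NC and 3 TGF-β1 samples was sequenced by the authors, who removed ribosomal RNA and aligned cleaned reads to the Sus scrofa 10.2 genome. For the aligner, a name was not given in the sources used here. Deposited FPKM come from StringTie 1.3.1, per the paper, whose expression and significance thresholds of 0.1 were used. As the files give no reads per gene, count tests were not run, and depth per sample is known only as a rough relative estimate. The paper gives raw reads by group, more for TGF-β1 than for control, whereas the highest relative estimate was that of an NC sample. Groups came from the sample titles. Members were found by ID and by equality of values with the lncRNA table. They and the marker lists were chosen with earlier results of these data known. Of 4 erythroid marker symbols, 0 were found.

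From these values, log2(FPKM + 0.1) was tested in R 4.3.3 by limma 3.58.1 with lmFit and eBayes at default parameters, over all genes with an FPKM above 0.1 in at least 3 samples, with Benjamini-Hochberg adjustment at 0.1. The test was tried on simulated data. Tables and figures were made in Python 3.11.15 with pandas 2.3.3 and matplotlib 3.10.9. IDs were printed for at most 2 members that rose and 2 that fell by size of change among those that passed with separate groups, the 6 with the highest means, and the 2 steadiest and 2 most variable at a mean FPKM of at least 1. Alternatives were other pseudocounts, filters, scalings, thresholds, a trended fit, the replicate number as a block and leaving out each sample. Leaving out members equal to a lncRNA locus sum, TGF-β1 replicate 3 for counts, and each sample for detection by group, were added after seeing the data.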

Additional observations from a re-analysis of the deposited data

How the results depend on the processing

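The number of members that passed limma's test was 5 as deposited. It was 2 with a pseudocount of 1 or when tested genes were limited to means of 1 FPKM or more, 21 with a pseudocount of 0.01, 9 with quantile normalization, 3 at an adjusted p of 0.05, 1 with the replicate number as a block, and 5 to 17 when single samples were left out. All 5 were among the 21 and the 9, and Pig_newGene_39422 was the 1 that passed with the block. Samples of the same number had correlations of deviations from the group means of 0.251, 0.00393 and 0.196, and NC replicate 2 was nearest to TGF-β1 replicate 3 (0.0396), so the numbers were not taken to pair the samples. The pairs numbered 1 and 3 had the highest r of the 9 combinations, however, and macrophage, endothelial and muscle marker sums ordered the replicates alike in both groups. The trended and robust fit called 6 members, of which 3 were among the 5. With no filter, median-ratio scaling, the same total, a minimum absolute log2 fold change of 1, equality to 3 decimals, or without lncRNA locus sums or new genes equal to a lncRNA, 5 passed.

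The median log2 fold change of the tested members, -0.09, was -0.0059 with quantile normalization and -0.0032 with median-ratio scaling, and turned to 0.0232 with the same total, where all genes had 0.0233. It was -0.12 to -0.07 without single samples. The members with separate groups were 151 at means of 1 FPKM or more (33 higher and 118 lower) and 512 without TGF-β1 replicate 3. The median number of members expressed in a sample, 1906 above 0.1 FPKM, was 1209 above 0.5 and 860 above 1. Those expressed in all samples were 838 above 0.5 and 632 above 1. The median sum of the members, 9541 FPKM, was 6779 without the 10 highest members and 9015 without lncRNA locus sums. When single samples were left out, the log2 fold change of Pig_newGene_45511 ranged from -0.47 to 0.84, below 0 also at -0.10, that of Pig_newGene_20571 from -0.00415 to 0.0408 and that of Pig_newGene_48857 from -0.00723 to 0.0483. The causes were not tested. Read depth per gene is unknown, and no test of detectability by level was made.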
